A study of Mus musculus with 24 samples.

Results

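The genes described here are the nuclear genes of oxidative phosphorylation in the mouse: the subunits of the 4 respiratory complexes and of ATP synthase that are encoded in the nucleus. They were taken from the RefSeq annotation of GRCm38 by symbol, as protein-coding genes whose symbol begins with Nduf followed by a, b, c, s or v and a digit, with Uqcr, with Cox4 to Cox8 or with Atp5, and the genes Sdha, Sdhb, Sdhc and Sdhd. The rule found 87 of 21887 protein-coding genes, on 19 chromosomes. By symbol, 40 belong to complex I, 4 to complex II, 8 to complex III, 18 to complex IV and 17 to complex V. Symbols are broader than subunits: Cox7a2l encodes an assembly factor of respiratory supercomplexes, and Ndufa4, counted here with complex I, encodes a protein now placed in complex IV.

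Complexes I and II pass electrons from NADH and succinate to ubiquinone, complex III passes them on to cytochrome c, and complex IV passes them to oxygen. Complexes I, III and IV pump protons across the inner mitochondrial membrane, and complex V, the ATP synthase, lets them back to make ATP. Subunits of all but complex II are encoded in part by mitochondrial DNA, so that the nuclear genes must be expressed in step with a second genome. Factors known for this coordination are NRF1, the ETS factor GABP, YY1, the receptor ERRα (gene Esrra) and the coactivators of the PGC-1 family. The retina uses much ATP, and photoreceptors, which are packed with mitochondria, also run a high glycolysis.

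The series used CUT&RUN, in which a nuclease tethered by an antibody releases the DNA around a protein or a histone mark for sequencing. Its 24 libraries came from whole retina of wild-type mice at postnatal day 2 (P2) or postnatal day 17 (P17), with 600000 nuclei in a reaction. At each age SOX8 was profiled in 4 libraries from 2 antibodies, and SOX9, the promoter mark H3K4me3, the promoter and enhancer mark H3K27ac and the IgG control in 2 libraries each. The 20 libraries with a target antibody are represented by 8 peak lists, 1 for each target and age, that name no replicate, and the 4 IgG libraries were not analysed here. A strain, sex or number of animals is not given in the sources used here.

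A peak list gives the position of each peak and nothing else, so the measurements are the presence of a peak and its width. Every list stands for a group without replicate values, so no difference below has a replicate check or a test, and the depth of the libraries is unknown. Peak numbers ran from 2400 to 5476 in the SOX lists and from 9134 to 9629 in the H3K4me3 lists, whereas H3K27ac had 287845 peaks at P2 and 29909 at P17. Rod markers carried H3K4me3 at 4 of 6 genes at P2 and at 6 of 6 at P17, and markers of microglia (0 of 5) and of heart and skeletal muscle (0 of 6) carried none at either age. Markers of retinal progenitors and Müller glia carried it at 6 of 6 genes at P2 and 4 of 6 at P17, markers of endothelium at 1 of 5 at both ages, and markers of the retinal pigment epithelium at 1 of 5 and 2 of 5. In whole tissue, fewer cells of a type and less signal per cell cannot be told apart.

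Nearly all oxidative phosphorylation genes carried both active marks at both ages. A peak was assigned to every gene that it reached, by at least 1 bp, in the gene body or its flanks of 5 kb. H3K4me3 lay at 78 of 87 genes at P2 (89.7%), where 49.3% of all protein-coding genes had it, and at the same 78 genes at P17, where 50.9% had it. No gene had the mark at 1 age only, and over all protein-coding genes 45.9% had it at both ages. H3K27ac lay at 84 genes at P2 (96.6%, against 81.8% of all genes) and at 82 at P17 (94.3%, against 57.0%). Limited to as many of its widest peaks as the P17 list holds, the P2 H3K27ac list reached 26 members (29.9%, against 40.5% of all genes). Among the sets for comparison, 83 of 85 cytosolic ribosomal protein genes had H3K4me3 at either age, and 74 and 77 of 78 mitochondrial ribosomal protein genes had it at P2 and P17.

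SOX peaks were found at a minority of the genes. SOX8 peaks lay at 21 genes at P2 (24.1%, against 15.1% of all protein-coding genes) and at 16 at P17 (18.4%, against 13.0%). SOX9 peaks lay at 30 genes at P2 (34.5%, against 27.7%) and at 15 at P17 (17.2%, against 15.7%). SOX8 and SOX9 are related DNA-binding factors with an HMG box, and SOX9 is known from retinal progenitors and Müller glia. In all, 35 genes had a peak in at least 1 SOX list (40.2%, against 33.9%) and 52 had none. When each peak was given to the nearest gene alone, the counts were 10 and 7 for SOX8 and 18 and 9 for SOX9, at P2 and P17. The shares then lay close to those of all genes, for example 11.5% against 11.0% for P2 SOX8 and 20.7% against 20.9% for P2 SOX9. The bar chart of genes with a peak places these shares beside those of the ribosomal protein genes, of which the cytosolic ones had P2 SOX9 peaks at 48 of 85 genes.

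**Figure D1:**
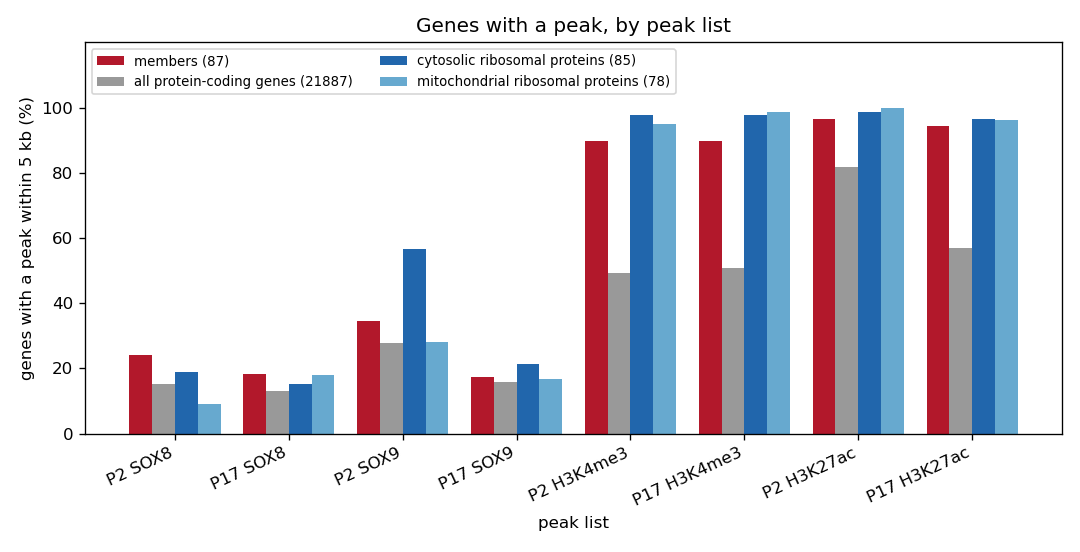
Percentage of genes with at least 1 peak within 5 kb (vertical axis) in each of the 8 peak lists (horizontal axis), for the 87 oxidative phosphorylation genes (members), all 21887 protein-coding genes and 2 sets of ribosomal protein genes. The members stand far above all genes in H3K4me3 (89.7% against 49.3% at P2) and close to them in P17 SOX9 (17.2% against 15.7%).

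How the SOX shares compared with the rest of the genome depended on which genes they were set against. The oxidative phosphorylation genes are short, with a median length of 7131 bp against 17169 bp for all protein-coding genes, and 76 of them span at most 20 kb. Among protein-coding genes of at most 20 kb, SOX8 peaks lay at 12.9% at P2 and 12.5% at P17, where the 76 short members had 27.6% and 21.1%. For SOX9 the figures were 22.8% at P2 and 14.9% at P17, with 35.5% and 19.7% of the short members. In the same short genes, H3K4me3 lay at 40.7% and 41.6% and H3K27ac at 71.2% and 46.7%, at P2 and P17.

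Against genes that also had H3K4me3, the order turned round. Of the 78 members with the mark, 26.9% had a P2 SOX8 peak and 20.5% a P17 SOX8 peak, where 29.8% and 23.1% of all protein-coding genes with H3K4me3 of that age did. For SOX9, 38.5% of the 78 had a peak at P2 against 53.3%, and 19.2% at P17 against 27.4%. In all 4 lists the members' share thus lay above that of all genes and below that of genes with H3K4me3, without a test of either difference. The order against all genes was not kept under other ways of counting. It turned for P17 SOX9 within gene bodies alone (12.6% against 13.5%), for P2 SOX9 with equal numbers of the widest peaks (11.5% against 12.2%), in 3 of the 4 lists with the wider 50% of peaks and in 3 of the 4 with the nearest gene alone.

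SOX8 and SOX9 peaks often lay at the same members, as they did over all genes. At P2, 19 members had both, of 21 with SOX8 and 30 with SOX9 (21.8% of the 87, against 14.5% of all genes). Over all genes 3164 had both, of 3302 with SOX8 and 6073 with SOX9. At P17, 12 members had both, of 16 and 15 (13.8%, against 9.29%), and over all genes 2034, of 2850 and 3445. With the nearest gene alone, the shares with both were 9.2% against 9.9% at P2 and 5.75% against 5.67% at P17. From P2 to P17, SOX8 peaks were kept at 13 of 21 members (61.9%, against 53.6% of all genes with a P2 SOX8 peak) and were gained at 3 of 66 (4.55%, against 5.82%). SOX9 peaks were kept at 12 of 30 members (against 41.1% of all genes with a P2 SOX9 peak) and were gained at 3 of 57 (5.26%, against 6.01%). For SOX9, the share of kept peaks lay near that of all genes. For SOX9 the order of the ages turned when every SOX list was limited to its 2400 widest peaks, with 10 members at P2 and 13 at P17. SOX8 then lay at 18 and 16, still more at P2. Counting either factor in the full lists, 16 members had a SOX peak at both ages, 16 at P2 only and 3 at P17 only. The matching shares of all genes were not counted, so these numbers are not set against the genome.

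**Figure D2:**
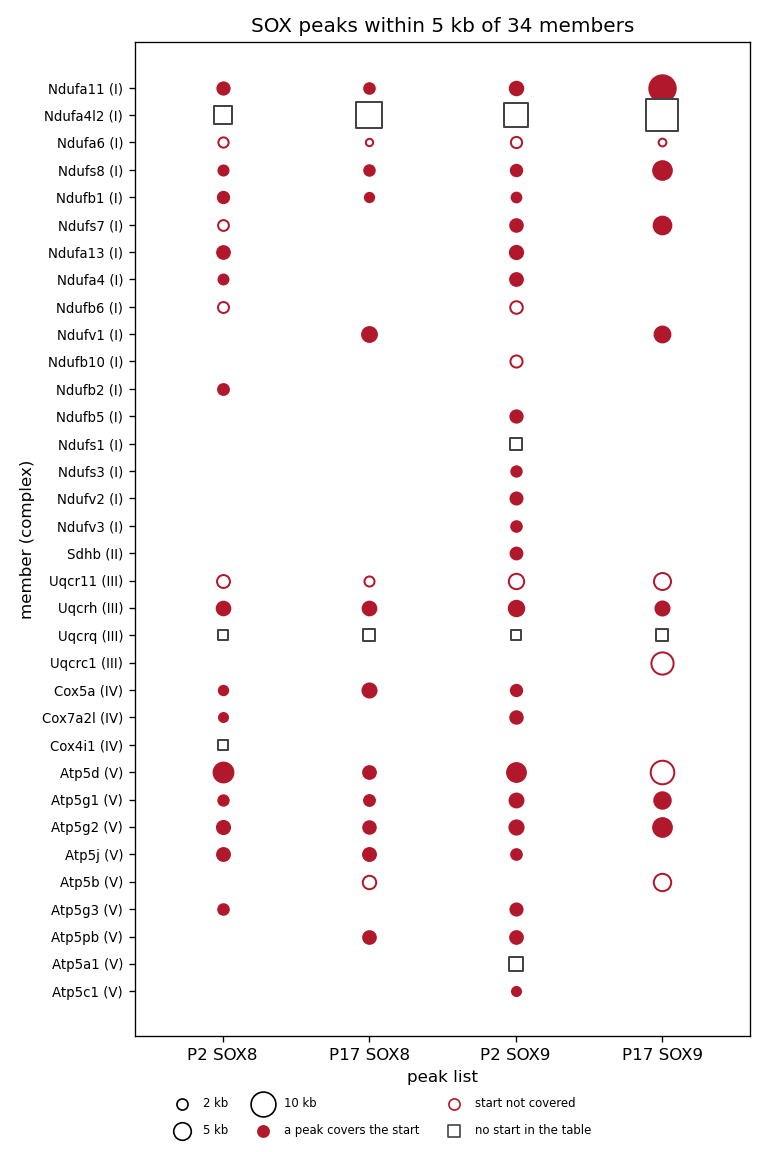
SOX peaks within 5 kb of 34 oxidative phosphorylation genes (members), ordered by complex (vertical axis), and the 4 SOX lists (horizontal axis). The area of a symbol grows with the width of the widest peak, filled circles mark genes where a peak covers the start site, open circles those where none does, and squares genes without an entry in the promoter table. The P2 SOX9 column has 29 symbols and the P17 SOX9 column 14, and Ndufa4l2 has the widest peak in both P17 columns.

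The counts by complex, which are small and were not tested against each other, can be read from the plot of SOX peaks by gene. Over all genes the shares to set beside them were 15.1% and 13.0% for SOX8 and 27.7% and 15.7% for SOX9, at P2 and P17. Complex I had SOX9 peaks at 16 of 40 genes at P2 and 7 at P17 (17.5%), and SOX8 peaks at 10 and 6. Complex III had SOX8 peaks at 3 of 8 genes at both ages, and SOX9 peaks at 3 at P2 and 4 at P17. In complex V, SOX8 peaks lay at 5 of 17 genes at P2 and 6 at P17, and SOX9 peaks at 8 and 4. Complex IV had SOX8 peaks at 3 of 18 genes at P2 (16.7%, near the share of all genes) and 1 at P17, and SOX9 peaks at 2 at P2 (11.1%) and 0 at P17. Of the 18, 11 had H3K4me3.

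The 10 genes with a peak in all 4 SOX lists (11.5% of the 87, against 6.45% of all protein-coding genes) came from complexes I, III and V. They were Ndufs8, Ndufa6, Ndufa11 and Ndufa4l2 of complex I, Uqcr11, Uqcrq and Uqcrh of complex III, and Atp5d, Atp5g1 and Atp5g2 of complex V. All 10 also had H3K4me3 and H3K27ac at both ages. Most genes with a SOX peak had H3K4me3 of that age. It lay at 3219 of 3302 genes with P2 SOX8, 2572 of 2850 with P17 SOX8, 5750 of 6073 with P2 SOX9 and 3053 of 3445 with P17 SOX9. At 5 of the 10, Atp5g1, Atp5g2, Ndufa11, Ndufs8 and Uqcrh, a peak of every SOX list covered the gene's own transcription start site.

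Atp5g1 and Atp5g2 are members of a small family of genes that encode the same c subunit, the ring that turns in the membrane part of ATP synthase. At Atp5g1 the SOX8 peak over the start site was 1741 bp wide at P2 and 1912 bp at P17, and the SOX9 peak 3138 bp and 4394 bp. At Atp5g2 the SOX8 peak was 2786 bp and 2551 bp, and the SOX9 peak 3254 bp and 5698 bp. The third gene of the family, Atp5g3, had P2 peaks only, of 1811 bp (SOX8) and 2386 bp (SOX9). None of these peaks reached the start site of another gene.

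Ndufs8 encodes an iron-sulphur subunit of the catalytic core of complex I. Its SOX8 peaks were 1655 bp and 1786 bp wide at P2 and P17, and its SOX9 peaks 2101 bp and 5659 bp. Ndufa11 encodes an accessory subunit in the membrane arm, and its SOX9 peak went from 2949 bp at P2 to 11308 bp at P17, while its SOX8 peak was 2426 bp and 1815 bp. Uqcrh encodes the hinge protein of complex III, which helps cytochrome c to dock. Its peaks were 3002 bp and 3048 bp (SOX8) and 3852 bp and 3197 bp (SOX9). P17 SOX9 peaks were wide throughout the list, with a median of 5336 bp against 2668.5 bp at P2.

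The promoters of these 5 genes are shown so that the letters under the SOX peaks can be read. Each runs from 250 bases before to 50 bases after the start site, 5′ to 3′ on the gene's strand, from RefSeq on GRCm38.p6. They lie at chr11:96075582-96075881 (Atp5g1, minus strand), chr15:102670998-102671297 (Atp5g2, minus), chr17:56717512-56717811 (Ndufa11, plus), chr19:3912725-3913024 (Ndufs8, minus) and chr4:116075021-116075320 (Uqcrh, minus). Capitals mark matches on either strand to any of 5 short motifs: the SOX core ACAANG, the ETS core CCGGAAG, the YY1 core AAGATGGCG, the NRF1 core GCGCANGCG and the GC box GGGCGG.
Atp5g1: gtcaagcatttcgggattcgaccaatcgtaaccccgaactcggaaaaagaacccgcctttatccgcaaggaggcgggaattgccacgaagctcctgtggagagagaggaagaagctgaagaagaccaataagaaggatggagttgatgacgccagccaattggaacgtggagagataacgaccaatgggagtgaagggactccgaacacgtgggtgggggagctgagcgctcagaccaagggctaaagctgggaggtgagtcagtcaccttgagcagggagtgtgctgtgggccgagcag
Atp5g2: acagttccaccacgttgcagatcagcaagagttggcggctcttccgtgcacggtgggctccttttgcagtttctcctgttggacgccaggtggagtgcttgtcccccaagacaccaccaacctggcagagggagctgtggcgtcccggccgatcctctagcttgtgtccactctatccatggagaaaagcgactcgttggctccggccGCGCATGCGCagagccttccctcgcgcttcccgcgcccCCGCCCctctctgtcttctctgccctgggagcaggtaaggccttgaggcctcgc
Ndufa11: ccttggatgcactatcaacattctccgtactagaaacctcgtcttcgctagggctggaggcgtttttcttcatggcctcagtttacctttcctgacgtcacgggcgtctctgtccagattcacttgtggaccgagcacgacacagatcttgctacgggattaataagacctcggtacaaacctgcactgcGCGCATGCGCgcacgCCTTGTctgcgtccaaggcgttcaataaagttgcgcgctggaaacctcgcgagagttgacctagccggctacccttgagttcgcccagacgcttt
Ndufs8: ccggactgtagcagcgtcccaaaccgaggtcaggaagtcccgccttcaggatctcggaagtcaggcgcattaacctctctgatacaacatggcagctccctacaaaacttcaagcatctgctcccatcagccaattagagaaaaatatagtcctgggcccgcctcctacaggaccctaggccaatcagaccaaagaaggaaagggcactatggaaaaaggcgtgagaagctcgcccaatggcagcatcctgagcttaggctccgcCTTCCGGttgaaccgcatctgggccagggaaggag
Uqcrh: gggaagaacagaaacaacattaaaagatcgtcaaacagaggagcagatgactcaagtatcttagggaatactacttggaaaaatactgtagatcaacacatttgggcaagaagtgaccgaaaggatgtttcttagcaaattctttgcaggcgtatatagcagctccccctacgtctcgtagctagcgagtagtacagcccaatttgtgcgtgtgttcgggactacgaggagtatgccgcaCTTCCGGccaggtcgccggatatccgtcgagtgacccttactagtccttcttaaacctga
Atp5g2 and Ndufa11 each held 2 overlapping NRF1 matches, which read the same palindrome on both strands. Ndufs8 and Uqcrh each held 1 ETS match, Ndufa11 held 1 SOX match, Atp5g2 held 1 GC box, and Atp5g1 matched none of the 5 motifs. A match is a description of the letters in these windows, which are far narrower than the peaks.

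At Ndufa11 and Uqcrh every one of these SOX peaks also covered the start site of a neighbour, Vmac and Lrrc41. At the other 5 genes with peaks in all 4 lists, the peaks either left the gene's own start uncovered in at least 1 list or lay at a gene without a start in the table. Uqcr11, a small subunit of complex III, had SOX peaks of 2694 bp and 1633 bp (SOX8, P2 and P17) and 3807 bp and 4670 bp (SOX9), all outside the gene and over the start site of Mbd3, a subunit of the NuRD chromatin remodeller. Ndufa6, an accessory subunit of complex I, had peaks of 1696 bp and 868 bp (SOX8) and 2041 bp and 971 bp (SOX9), all over the start site of Smdt1, which encodes a regulator of the mitochondrial calcium uniporter. Both genes had H3K4me3 over their own start sites, where no SOX peak lay. Uqcrq, another subunit of complex III, has no entry in the promoter table, and its peaks of 1792 bp to 2109 bp overlapped both Uqcrq and Gdf9.

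Atp5d encodes the delta subunit in the central stalk of ATP synthase and lies between Cbarp and Midn. At P2 it had 2 SOX8 peaks, 1 of 2179 bp over its own start site and 1 of 6363 bp over that of Midn, and 3 SOX9 peaks, of which 1 of 2777 bp covered its own start site. At P17 the SOX8 list had 1 peak of 2639 bp over the start site of Atp5d. The P17 SOX9 list had 2 peaks, of 6179 bp over the start site of Cbarp and 8994 bp over that of Midn, and neither covered the start site of Atp5d.

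Ndufa4l2 had the widest SOX peak of any member in 3 of the 4 lists. It encodes a paralogue of Ndufa4 that is best known as a gene induced by low oxygen. At P2 it had 2 SOX8 peaks of 3921 bp and 5209 bp and 1 SOX9 peak of 10006 bp. At P17 1 SOX8 peak of 10697 bp (chr10:127507474-127518170) spanned the gene, and so did 1 SOX9 peak of 16980 bp (chr10:127506196-127523175). The last of these also covered the start site of Shmt2, the next gene. H3K4me3 went the other way at this locus, from a widest peak of 9457 bp at P2 to 6081 bp at P17.

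Of the members with SOX peaks at 1 age only, 16 had them at P2 and 3 at P17, from lists that held more peaks at P2. The same split over all genes was not counted. The 5 of the 16 P2-only genes with the widest peaks were Atp5a1, the alpha subunit of ATP synthase (SOX9, 3140 bp), Ndufa13, an accessory subunit of complex I (SOX9, 2828 bp), Ndufs1, the large iron-sulphur subunit of complex I (SOX9, 2709 bp, over the start site of Eef1b2), Ndufa4 (SOX9, 2643 bp) and Ndufb6, an accessory subunit (SOX9, 2548 bp, over the start sites of Topors and Smim27). The 3 P17-only genes were Uqcrc1, Atp5b and Ndufv1. Uqcrc1, a core protein of complex III, had 1 SOX9 peak of 7975 bp at the start site of Col7a1, where neither H3K4me3 nor H3K27ac was called at P17. Atp5b, the catalytic beta subunit of ATP synthase, had peaks of 2913 bp (SOX8) and 4902 bp (SOX9) over the start site of Baz2a and none over its own.

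Ndufv1 was the P17-only gene with peaks at its own start. It encodes the complex I subunit that takes the electrons from NADH. In the P2 lists it had neither SOX8 nor SOX9. At P17 a SOX8 peak of 2601 bp and a SOX9 peak of 4058 bp covered its start site, and a further SOX8 peak of 3567 bp lay over the start site of Nudt8. The H3K4me3 peak over the same start site went from 2439 bp at P2 to 5487 bp at P17.

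Besides Ndufa4l2, the following genes had some of the widest SOX peaks. In P2 SOX8 they lay at Atp5d (6363 bp), Uqcrh (3002 bp), Atp5g2 (2786 bp) and Uqcr11 (2694 bp), and in P17 SOX8 at Ndufv1 (3567 bp), Cox5a (3211 bp), Uqcrh (3048 bp) and Atp5b (2913 bp). Cox5a is a subunit of complex IV, and its peaks covered its own start in 3 lists, with 1428 bp in P2 SOX8 and 2064 bp in P2 SOX9. In P2 SOX9 they lay at Atp5d (5751 bp), Uqcrh (3852 bp) and Uqcr11 (3807 bp), and in P17 SOX9 at Ndufa11 (11308 bp), Atp5d (8994 bp) and Uqcrc1 (7975 bp). The median SOX peak at members was narrower than that of its whole list in each case: 1944 bp against 2217 bp in P2 SOX8, 2601 bp against 2911.5 bp in P17 SOX8, 2531 bp against 2668.5 bp in P2 SOX9 and 5083 bp against 5336 bp in P17 SOX9.

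A large part of the SOX peaks near members lay at another gene's promoter. A start site was known for 70 of the 87 genes and for 17492 protein-coding genes in all. Among the 17 genes without one in the table were Cox6c, Ndufb9, Uqcrq, Uqcrc2, Ndufa4l2, Atp5mpl, Cox6a2, Sdhc, Uqcrb, Ndufa2, Cox8c, Atp5a1, Ndufb4c, Cox4i1, Cox4i2 and Ndufs1. Of 23 P2 SOX8 peaks at members, 8 covered the start site of a member alone, 6 that of a member and another gene, 5 that of another gene alone and 4 none in the table. For the 17 P17 SOX8 peaks the numbers were 6, 5, 4 and 2, for the 34 P2 SOX9 peaks 11, 10, 8 and 5, and for the 17 P17 SOX9 peaks 5, 2, 9 and 1. No SOX peak was shared by 2 members. All of the SOX peaks overlapped H3K4me3 of the same age except 2 in P17 SOX9, the one at Col7a1 and one of 5083 bp at Gamt, near Ndufs7.

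Counted over start sites, the members' SOX shares were above all genes in both SOX8 lists and P2 SOX9, and near all genes in P17 SOX9. They were at or below genes with H3K4me3. SOX8 peaks covered the start site of 14 of 70 members at P2 (against 11.9% of all genes with a start site) and of 11 at P17 (15.7%, against 8.05%). SOX9 peaks covered 21 at P2 (against 22.3%) and 7 at P17 (against 9.86%). H3K4me3 covered 64 at P2 (91.4%, against 43.8%) and 65 at P17 (92.9%, against 45.1%). Among start sites under H3K4me3, the members' shares were 21.9% against 26.6% (P2 SOX8), 16.9% against 16.9% (P17 SOX8), 32.8% against 48.7% (P2 SOX9) and 10.8% against 19.7% (P17 SOX9). Cytosolic ribosomal protein genes, also highly expressed in most cells, had P2 SOX9 over 32 of 65 start sites and P17 SOX9 over 6.

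Many of the member promoters are shared with a gene on the other strand. Of the 70, 18 had the start of a divergent gene within 1 kb (25.7%), where 7.52% of all genes with a start site did. Among genes with H3K4me3 over the start at both ages the shares were 28.1% of 64 members and 16.5% of 7076 genes. A SOX peak of any list covered the start of 9 of the 18 divergent members and of 14 of the other 52. A like difference was present over all genes. P2 SOX9 peaks covered 690 of 1315 divergent starts and 3210 of 16177 others, where they covered 9 of 18 and 12 of 52 in members. Atp5j, which encodes the coupling factor 6 subunit of the ATP synthase stalk, was not among the 18: its start site lies inside Gabpa, the gene on the other strand for the DNA-binding subunit of GABP. SOX8 peaks of 2690 bp (P2) and 2704 bp (P17) and a P2 SOX9 peak of 1851 bp covered both starts, and no P17 SOX9 peak did.

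In member promoters with H3K4me3, the GC box had a lower share and the NRF1, YY1 and SOX cores a higher share than in all genes with the mark. The share of the ETS core lay near that of those genes, and no difference was tested. The motif counts used both strands of the 300 bases described above. The SOX core and the GC box are short and occur in many promoters, and no position of 1 motif was kept from counting for another. Of 64 members with H3K4me3 over the start at both ages, 28.1% held the NRF1 core, against 17.6% of 7076 protein-coding genes with the mark and 8.87% of all 17492. The GC box was in 40.6%, against 70.8% and 46.3%. The ETS core was in 16 of the 64, against 22.1% and 11.9%, the YY1 core in 7.81%, against 4.15% and 1.92%, and the SOX core in 40.6%, against 30.6% and 38.5%. The member promoters held a median of 19 CpG, where genes with the mark had 24. The promoters of 69 mitochondrial ribosomal protein genes had the SOX core in 43.5%, the NRF1 core in 23.2%, the YY1 core in 11.6%, the ETS core in 34.8% and the GC box in 49.3%.

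**Figure D3:**
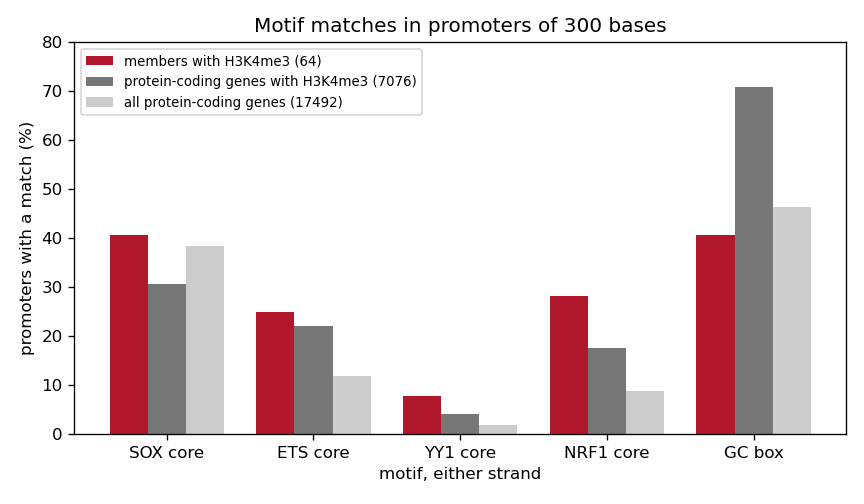
Percentage of promoters of 300 bases with at least 1 match to each of 5 motifs on either strand (vertical axis), for the 64 oxidative phosphorylation genes (members) and 7076 protein-coding genes with H3K4me3 over the start at both ages, and for all 17492 protein-coding genes with a start site. The members have the GC box in 40.6% of promoters against 70.8%, and the NRF1 core in 28.1% against 17.6%.

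The SOX core had a lower share in member promoters under a SOX peak than in the others. It was in 8 of the 23 promoters with a SOX peak over the start (34.8%) and in 18 of the 41 with H3K4me3 at both ages and no SOX peak (43.9%). The NRF1 core was in 3 of the 23 (13.0%) and in 15 of the 41 (36.6%). Over all protein-coding genes with H3K4me3 at both ages, the SOX core was in 30.8% of promoters with a SOX peak and 30.4% of those without, and the NRF1 core in 16.8% and 18.5%.

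The H3K4me3 peak over the start site was wider at P17 than at P2 at most members. It covered the start at both ages in 64 genes, with a median width of 3445 bp at P2 and 3920 bp at P17. The width was larger at P17 in 54 of the 64 (84.4%) and smaller in 10, with a median ratio of 1.14. Of the 7076 protein-coding genes measured in the same way, 58.4% were wider at P17, with a median ratio of 1.05. Wider at P17 were 27 of 60 cytosolic ribosomal protein genes (median ratio 0.981) and 45 of 64 mitochondrial ribosomal protein genes (1.10, 70.3%). The median peak of the whole H3K4me3 list was 3542 bp at P2 and 3703 bp at P17.

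The gain lay mostly on the side of the gene body. Between the start site and the downstream edge of the peak, the members' median distance went from 1884 bp at P2 (64 genes) to 2374 bp at P17 (65 genes), and on the upstream side from 1406.5 bp to 1473 bp. Over all protein-coding genes the downstream distance went from 2067 bp to 2189 bp, and the upstream distance was 1399 bp at both ages. Among genes whose P2 width lay between the members' quartiles, 62.2% of all genes and 84.4% of 32 members were wider at P17. Without divergent promoters, 89.1% of 46 members and 58.1% of 5905 genes were.

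**Figure D4:**
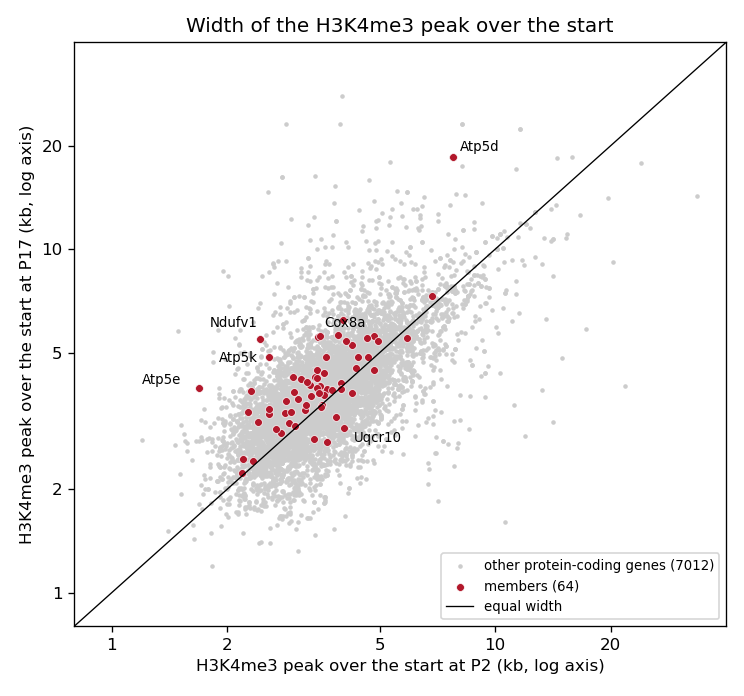
Width of the H3K4me3 peak over the start site at P2 (horizontal axis, kb, log scale) and P17 (vertical axis, kb, log scale) for 64 oxidative phosphorylation genes (members) and the others of the 7076 protein-coding genes, with the line of equal width. Of the members, 54 lie above the line and 10 below it, and Atp5d, Atp5e and Ndufv1 lie farthest above it.

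Genes of ATP synthase led the widening. At 8 members the ratio was above 1.5 (12.5%, against 8.9% of all genes), 5 of them among the 15 measured genes of complex V, and no member narrowed by more than 1.5 times (4.32% of all genes did). Atp5d went from 7776 bp to 18517 bp, a ratio of 2.38. The P2 list had 2 H3K4me3 peaks in its window and the P17 list 1 peak, which ran from Cbarp to Midn. Atp5e, the epsilon subunit, went from 1689 bp, the narrowest at any member at P2, to 3953 bp (2.34).

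Atp5k and Atp5j2, small subunits of the membrane part of ATP synthase, went from 2571 bp to 4868 bp (1.89) and from 2311 bp to 3860 bp (1.67). Atp5h, the d subunit of the stalk, went from 4007 bp to 6218 bp (1.55). The other 3 were Ndufv1 (2.25), Cox8a, a subunit of complex IV (3449 bp to 5568 bp, 1.61), and Ndufa4 (3489 bp to 5575 bp, 1.60). The narrowing was strongest at Uqcr10 of complex III, from 4033 bp to 3009 bp (0.746), and at Ndufb2 of complex I, from 3638 bp to 2741 bp (0.753). In complex I, 28 of 32 measured genes were wider at P17, in complex V 13 of 15, in complex IV 7 of 9 and in complex III 3 of 5.

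In the whole window of a gene, the widest H3K4me3 peaks at P2 were those of Atp5b (10124 bp, most of it over Baz2a), Ndufa4l2 (9457 bp), Atp5d (7776 bp), Ndufs3 (7285 bp) and Ndufb10 (6832 bp). At P17 they included those of Atp5d (18517 bp), Atp5b (10810 bp), Ndufb10 (7314 bp) and Ndufv2 (6822 bp, the width over the start of its neighbour Ankrd12). Over their own starts, Ndufs3 had 3837 bp at P2 and Ndufv2 4113 bp at P17. Ndufs3 and Ndufv2 are core subunits of complex I and Ndufb10 an accessory one. The narrowest were Atp5e (1689 bp), Atp5mpl, a small ATP synthase protein (1917 bp), and Ndufc1 of complex I (2187 bp) at P2, and Ndufc1 (2230 bp), Ndufa8 of complex I (2424 bp) and Cox7b of complex IV (2451 bp) at P17. Ndufs6, a subunit of complex I, was the gene whose start site was covered at P17 only, by a peak of 2178 bp. At P2 it had a peak of 2781 bp in its window that did not reach the start.

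H3K27ac also covered more of most members' windows at P17 than at P2. In the 78 members with H3K4me3 at both ages, H3K27ac peaks covered a median of 27.6% of the gene and its flanks at P2 and 31.7% at P17, and more at P17 in 56 genes (71.8%). In 4482 protein-coding genes of at most 20 kb with H3K4me3 at both ages, the medians were 33.0% and 27.9%, and 47.2% of genes had more at P17. H3K4me3 covered 20.7% and 24.5% of the members' windows, and more at P17 in 62 (79.5%, against 58.3% of the short genes). The P2 H3K27ac list covered 525 Mb in many narrow peaks (median 1166 bp) and the P17 list 173 Mb in wider ones (median 3268 bp), and the part of this difference in the coverage was not tested.

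The 9 members without H3K4me3 at either age were nearly all genes with a narrow tissue range. Among them were 7 isoform genes of complex IV: Cox4i2, best known from lung, Cox6a2, Cox7a1 and Cox8b, of heart and skeletal muscle, and Cox6b2, Cox7b2 and Cox8c, of testis. The other two were Ndufb4b and Ndufb4c, short genes named as copies of Ndufb4. None of the 9 had a SOX peak in any list. The list of tissue-restricted isoforms had 8 genes, and its eighth, Ndufa4l2, was the one with H3K4me3 and with peaks in all 4 SOX lists. The muscle markers, also without H3K4me3, had SOX peaks at 0 of 6 genes in each list.

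H3K27ac was called near 6 of these 9 genes at P2 and 4 at P17, in lists that reached 81.8% and 57.0% of all genes. At P2 it lay at Cox4i2 (6984 bp), Cox6b2 (1904 bp), Cox7a1 (1379 bp), Cox8b (1354 bp), Cox6a2 (1190 bp) and Cox7b2 (1166 bp). At P17 it lay at Cox6b2 (17347 bp), Cox7a1 (6364 bp), Cox8b (4625 bp) and Cox4i2 (2134 bp), within windows that also take in Kmt5c, Capns1, Psmd13 and Bcl2l1. Cox8c, Ndufb4b and Ndufb4c had no peak in any of the 8 lists. Their broadly expressed counterparts did: Cox8a, Cox7a2, Cox6b1 and Cox4i1 had H3K4me3 of 3449 bp, 3441 bp, 3366 bp and 5041 bp at P2.

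Cox8a and Cox8b encode the general and the heart and muscle form of the same subunit. Their promoters are shown for CpG, the dinucleotide in which promoters with H3K4me3 are rich. Both are from RefSeq on GRCm38.p6, at chr19:7217567-7217866 and chr7:140900397-140900696, both on the minus strand, and capitals here mark CpG.
Cox8a: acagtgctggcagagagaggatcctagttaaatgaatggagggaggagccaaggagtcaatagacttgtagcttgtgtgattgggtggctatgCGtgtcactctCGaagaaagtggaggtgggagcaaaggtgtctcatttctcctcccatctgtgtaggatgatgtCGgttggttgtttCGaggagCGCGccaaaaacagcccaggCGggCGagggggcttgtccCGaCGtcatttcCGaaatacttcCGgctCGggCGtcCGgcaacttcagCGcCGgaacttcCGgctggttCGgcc
Cox8b: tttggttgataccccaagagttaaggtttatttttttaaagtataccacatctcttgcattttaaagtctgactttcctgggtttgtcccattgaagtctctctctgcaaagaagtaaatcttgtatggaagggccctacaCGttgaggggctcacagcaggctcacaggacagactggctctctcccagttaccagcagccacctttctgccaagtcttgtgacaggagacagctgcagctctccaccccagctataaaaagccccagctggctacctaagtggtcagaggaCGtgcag
Cox8a held 19 CpG and Cox8b 2. Other pairs differed less or the other way: Cox7a2 held 20 and Cox7a1 7, Cox6b1 17 and Cox6b2 10, and Cox7b 5 and Cox7b2 10. The 5 members with an entry and without H3K4me3 over the start at either age had a median of 7 CpG, with a range of 2 to 10. None of the 5 held the NRF1, ETS or YY1 core.

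Complex II, which also serves the citric acid cycle and has no subunit in mitochondrial DNA, had a SOX peak at 1 of 4 genes, too few to set against the 33.9% of all genes with a peak in any SOX list. Sdhb, its iron-sulphur subunit, had a P2 SOX9 peak of 2267 bp over its start, and Sdha, Sdhc and Sdhd had none in any list. All 4 had H3K4me3 at both ages. Over the start it went from 3216 bp at P2 to 3518 bp at P17 at Sdhb, from 3432 bp to 3932 bp at Sdha, the flavoprotein, and from 4396 bp to 4842 bp at Sdhd, a membrane anchor. The widest peak in the window of Sdhc, the other anchor, was 3698 bp and 3792 bp.

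Genes that regulate the pathway had SOX peaks in a larger share than its subunits, and the difference was not tested. Of 15 regulators, 13 had a peak in at least 1 SOX list and 3 in all 4, with P2 SOX9 at 10 and P17 SOX9 at 6. Over all protein-coding genes the shares were 33.9%, 6.45%, 27.7% and 15.7% in the same order. These genes are longer, with a median of 21681 bp. H3K4me3 lay at 13 of the 15 at P2 and 14 at P17. Of all genes with H3K4me3 of that age, 53.3% had P2 SOX9 and 27.4% P17 SOX9. Of the 14 known start sites of regulators, P2 SOX9 covered 9 and P17 SOX9 3 (against 22.3% and 9.86% of all genes with a start site). Esrra had SOX8 peaks of 1979 bp and 3198 bp and SOX9 peaks of 2763 bp and 8331 bp, at P2 and P17. Yy1 had 3548 bp and 2910 bp (SOX8) and 4023 bp and 4779 bp (SOX9), and Twnk, the helicase of mitochondrial DNA, 4739 bp and 3941 bp (SOX8) and 5873 bp and 4016 bp (SOX9).

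Each coactivator gene of the PGC-1 family had SOX peaks at either P2 or P17, in too few genes to read a pattern. The window of Ppargc1a is very wide (gene at chr5:51454249-52115853), and the place of its peak was not examined. Ppargc1a, for PGC-1α, had a SOX9 peak of 4029 bp at P17 and no other SOX peak, and Ppargc1b, for PGC-1β, had P17 peaks of 3088 bp (SOX8) and 6508 bp (SOX9) and none at P2. Pprc1, their relative, had P2 peaks only, of 1891 bp (SOX8) and 2384 bp (SOX9). Nrf1 also had P2 peaks only, of 2122 bp and 2165 bp, and so did Tfb1m (1836 bp and 1903 bp) and Polg (2683 bp and 2681 bp). Gabpb1, the other GABP subunit gene, had P2 SOX9 (2377 bp), Tfb2m, a mitochondrial transcription factor, had P2 SOX9 (1781 bp), and Polrmt, the mitochondrial RNA polymerase, had P17 SOX9 (5623 bp). Tfam, which packages mitochondrial DNA, and Polg2, the accessory subunit of its polymerase, had no SOX peak. Among regulators Polrmt had no H3K4me3 at either age, and Tfb1m had it at P17 only (2043 bp).

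Other genes of mitochondrial energy supply had SOX peaks in varying shares. At least 1 SOX list had a peak at 19 of 46 assembly factors, 10 of 16 genes of the citric acid cycle, 5 of 9 genes of cytochrome c and carriers and 11 of 17 genes of glycolysis, and all 4 lists at 3, 2, 1 and 5 of them. For the 87 subunit genes the numbers were 35 and 10, and over all protein-coding genes the shares were 33.9% and 6.45%. The sets differ in gene length, with medians of 10409.5 bp, 23764 bp, 4896 bp and 16600 bp in the order named, against 7131 bp for the subunit genes. In glycolysis, P17 SOX8 lay at 8 of its 17 genes and P17 SOX9 at 9, where P2 SOX8 lay at 6 and P2 SOX9 at 8. The shares of all genes in these lists were 13.0%, 15.7%, 15.1% and 27.7%. None of these differences was tested. Cyc1, the cytochrome c1 of complex III, whose symbol is outside the rule, had peaks in all 4 SOX lists. The widest in its window were 1329 bp and 8151 bp (SOX8) and 2995 bp and 4682 bp (SOX9), at P2 and P17. Their place was not examined, and P17 SOX8 covered none of the 8 known start sites among cytochrome c and carriers. Cycs, for cytochrome c itself, had P2 peaks of 2058 bp (SOX8) and 2189 bp (SOX9).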

How the data were processed

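CUT&RUN peak lists for SOX8, SOX9, H3K4me3 and H3K27ac at P2 and P17 were used. Bowtie2, SEACR and GRCm38 are named per the submitters' processing notes, while settings, the use of IgG and the way libraries were combined are not given in the sources used here. The deposited lists hold chromosome, start, end and a score that was 0 in every peak, so peak height and depth are unknown. Positions are counted from 1. H3K4me3 peaks covered 43.8% (P2) and 45.1% (P17) of RefSeq start sites, and 2.64% and 2.99% after a move by 10 kb, as a check of the build. Peaks were joined to genes with Python 3.11.15, numpy 2.4.6 and pandas 2.3.3. Overlap was at least 1 bp with the gene or 5 kb on either side, and the procedure was tested on simulated data. Widths are those of the deposited peaks. How reads from near-identical genes were placed is not given in the sources used here.

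The members and the gene lists were chosen with earlier results of these data known. Named genes are those with peaks in all 4 SOX lists, the 5 with the widest peaks of either age-specific kind and in each SOX list, those without H3K4me3, the 5 widest and 3 narrowest for H3K4me3 at each age, all regulators and complex II. Genes with the strongest change in H3K4me3 width, Atp5j and counterparts of restricted isoforms were chosen after their values were seen. Some genes that the rule names are counted but not reported here.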

Additional observations from a re-analysis of the deposited data

How the results depend on the processing

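Counts were recomputed with no flank, 10 kb flanks, windows of 1 kb around start sites, an overlap of at least 50%, peaks trimmed to 500 bp, the wider 50% of each list, equal numbers of the widest peaks, peaks nearest to a member, and without restricted isoforms and non-subunits. Of the values, 77 stayed within 1.5 times the reported count and 16 did not. With the wider 50% of peaks, P2 SOX8 lay at 8 members, P17 SOX8 at 5, P2 SOX9 at 11, P17 SOX9 at 7, P2 H3K4me3 at 35, both factors at P2 at 7 and both at P17 at 1. The shares against all genes were 9.2% and 7.59% for P2 SOX8, 5.75% and 7.16% for P17 SOX8, 12.6% and 13.8% for P2 SOX9, 8.05% and 8.38% for P17 SOX9, 8.05% and 5.8% for both at P2, and 1.15% and 3.55% for both at P17. With only peaks nearest to a member, the counts were 10, 7, 18 and 9 in the same order of SOX lists, 8 for both at P2 and 5 for both at P17. These shares lay near those of all genes counted in the same way: 11.5% against 11.0% for P2 SOX8, 8.05% against 9.08% for P17 SOX8, 20.7% against 20.9% for P2 SOX9 and 10.3% against 10.7% for P17 SOX9. With equal numbers of the widest peaks, P2 SOX9 lay at 10 members, P2 H3K27ac at 26 and both factors at P2 at 8. The 3 alternatives for the H3K4me3 width were chosen after seeing the data. No paired analysis was possible because the lists hold no value per replicate, and for the same reason leaving out a replicate could not be run. The unknown depth and caller threshold of each list limit every comparison between lists.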
